A study of Arabidopsis thaliana with 12 samples.

Results

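The genes carried by the mitochondrial genome of Arabidopsis thaliana were followed in whole seedlings that overexpressed HIN1 and in wild-type seedlings, under low water potential and under control conditions. Mitochondrial loci were taken as the rows of the gene tables whose locus identifier starts with ATMG, and a locus was kept as a member when it had at least 10 reads summed over the 12 libraries. Of the 146 mitochondrial loci among the 33602 genes of the tables, 94 were members. Of the other 52 loci, 24 had no read in any library and 28 had fewer than 10 reads in all. The 4 groups held 3 libraries each. HIN1 stress was a stable transgenic 35S:HIN1 line moved after 7 days of growth to agar plates infused with polyethylene glycol at -0.7 MPa, and HIN1 control was the same line moved to fresh plates at -0.25 MPa. WT stress and WT control were wild type Col-0 handled in the same 2 ways, and all seedlings were collected 96 h after the move. All plates lacked sugar and were under continuous light. The 35S promoter, from cauliflower mosaic virus, is active in most plant tissues, and the labels name 1 transgenic line. The submitters' design text speaks of 3 independent biological experiments, but the labels do not say whether a replicate number marks one of them. The p-values measure the spread between these libraries.

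Mitochondria make ATP by passing electrons along the respiratory complexes of their inner membrane and letting protons flow back through ATP synthase. Each complex that pumps protons is built from subunits of both genomes: the mitochondrion encodes a few core subunits, its own ribosomal RNAs, some ribosomal proteins and factors that attach haem to cytochrome c, and the nucleus encodes all the rest. In plants, mitochondrial transcripts are edited at many cytidines, and a poly(A) tail marks a mitochondrial transcript for decay, whereas it stabilises a nuclear mRNA. The libraries were made from RNA purified on oligo-dT beads, so the values count mitochondrial RNA that was captured by those beads.

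Gene reads per library ran from 57996000 to 68555000, to the nearest 1000, and levels are given below as RPM, reads per 1000000 gene reads. HIN1 itself (AT3G11290) averaged 354 ± 32.4 RPM in HIN1 stress, 271 ± 30.4 in HIN1 control, 23.97 ± 0.989 in WT stress and 22.1 ± 0.986 in WT control (SD, n = 3 each), so every HIN1 library lay far above every WT library. Reads of chloroplast genes were highest in replicate number 3 of every group, between 4082 and 7504 RPM there and between 1412 and 2628 in the other 8 libraries. The members were also highest in replicate number 3 of every group, as described for their summed share. Whether one source set both was not tested.

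The tables give no gene names, so names were taken from the RefSeq annotation of TAIR10.1, through a note on a nuclear copy that cites the ATMG locus or through a locus length equal to that of 1 annotated mitochondrial gene only. In this way 29 of the 94 members were named and 65 were not. No locus had the 3169 bases of the annotated ribosomal RNA rrn26, so its locus was not found and may be among the unnamed. The named members were 6 loci of complex I (NADH dehydrogenase), 4 of complex IV (cytochrome c oxidase), 6 of ATP synthase, 5 cytochrome c maturation factors, 3 ribosomal proteins and 2 ribosomal RNAs, and 3 with other descriptions. Of complex III, cob (ATMG00220), which encodes apocytochrome b, was not a member: it had 0 reads in all 12 libraries, which allows at most 0.0438 to 0.0517 RPM per library for reads assigned there. A further member, ATMG00590, carries the description cytochrome b/b6 protein and has the same total of reads over the libraries as its chromosome 2 match.

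Much of the mitochondrial genome also stands in chromosome 2, where a long stretch of it was copied into the nucleus, and reads from such genes can be placed at either site. In TAIR10.1, 21 of 35 mitochondrial genes matched chromosome 2 with 99.7% or more of their coding or rRNA bases identical, within 3239693 to 3503476 on that chromosome. Another 8 genes matched over under 5% of their bases: atp4, ccmB, cox1, nad4L, nad9, rrn18, rrn26 and rrn5. The other 6 lay between, among them cox2 with 37.7% of its 783 bases identical, rpl16 with 40.6% and rps3 with 12.2%. Stretches of 150 bases are shown for 3 genes because they span this range. The start of atp8 (mitochondrial bases 247343 to 247492, minus strand) is the same, base for base, at chr2:3386292-3386441 (plus strand). The cox2 stretch (mitochondrial bases 6407 to 6556, plus strand) differs at 10 bases, in capitals, from chr2:3347094-3347243 (plus strand). The end of cox1 (mitochondrial bases 114762 to 114911, minus strand) holds in capitals the 37 bases that were its only match.
atp8, mitochondrion: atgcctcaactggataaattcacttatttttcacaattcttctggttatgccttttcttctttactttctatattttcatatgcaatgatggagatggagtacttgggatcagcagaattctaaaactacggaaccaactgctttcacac
atp8, chromosome 2: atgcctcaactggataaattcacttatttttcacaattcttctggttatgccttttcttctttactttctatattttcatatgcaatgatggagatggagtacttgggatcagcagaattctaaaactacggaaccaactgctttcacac
cox2, mitochondrion: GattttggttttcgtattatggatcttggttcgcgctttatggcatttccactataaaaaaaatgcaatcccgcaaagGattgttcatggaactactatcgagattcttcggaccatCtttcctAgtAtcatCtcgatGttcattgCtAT
cox2, chromosome 2: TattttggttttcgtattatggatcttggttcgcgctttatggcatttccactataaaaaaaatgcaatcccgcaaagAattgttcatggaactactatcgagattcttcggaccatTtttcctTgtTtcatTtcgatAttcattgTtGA
cox1, mitochondrion: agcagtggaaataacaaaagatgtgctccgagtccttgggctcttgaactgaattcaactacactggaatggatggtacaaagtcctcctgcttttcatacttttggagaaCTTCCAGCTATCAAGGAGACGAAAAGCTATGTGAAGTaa

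The deposited tables give for each gene the fraction of its reads that map to several sites. Among the 3 genes shown it was 99.7% for the ATP synthase subunit 8 locus (ATMG00480), whose bases atp8 shares with chromosome 2, 26.1% for cox2 (ATMG00160) and 0 for cox1 (ATMG01360), in the order of their likeness to chromosome 2. The order does not hold for every gene: rrn5 had 58.5% without a match there. The locus of ATP synthase subunit 9 (ATMG01080) had 21.9%, and atp9 matches at every base. That match covers the 225 bases of atp9, whereas the locus has 504. Across the 94 members, 26 had at most 10% of such reads, 50 had 50% or more and 23 had 99.56% or more. How reads with several sites were divided differed from library to library. ATMG00480 and its chromosome 2 match AT2G07707 had 72.0 reads each in HIN1 stress 2 and 168.5 each in HIN1 control 2, whereas in WT stress 2 the mitochondrial locus had 0 reads and AT2G07707 had 187.5. In WT stress 1, WT stress 3 and WT control 1, AT2G07707 was the locus at 0. For rps12 (ATMG00980), a protein of the small ribosomal subunit, the mitochondrial locus had 635 reads in WT stress 1 and 0 in WT stress 2, where the match AT2G07675 had 514. Summed over both loci, rps12 had 9.27 and 8.43 RPM in those libraries. The coefficient of variation over the 12 libraries was 56.6% for the rps12 locus alone and 19.2% for the sum, and 53.3% and 25.5% for ATMG00480. A low or zero count at such a locus therefore does not show that its RNA was scarce.

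**Figure D1:**
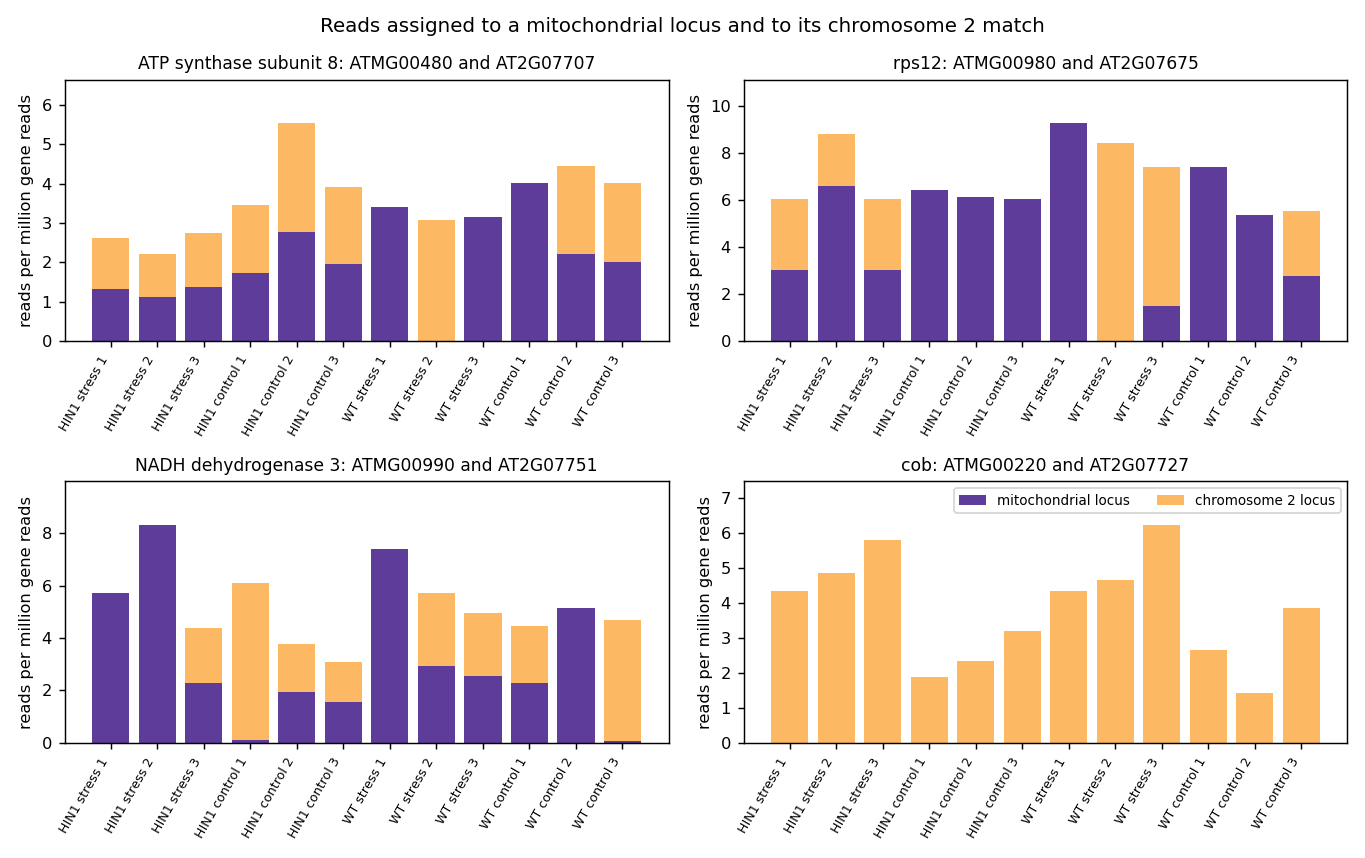
RPM, reads per 1000000 gene reads (y axis) at 4 mitochondrial loci (purple) and, stacked on them, at their chromosome 2 matches (orange), in each of the 12 libraries (x axis). The same library can hold all its reads at one locus or the other, as for rps12 in WT stress 1 (9.27 at the mitochondrial locus) and WT stress 2 (8.43 at the chromosome 2 locus), and cob has reads at its chromosome 2 locus in every library and none at ATMG00220.

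Mitochondria-encoded genes took a larger share of gene reads in stressed than in control seedlings of both genotypes. The members held 381, 444 and 585 RPM in HIN1 stress, 247, 253 and 475 in HIN1 control, 424, 418 and 648 in WT stress, and 282, 218 and 378 in WT control, in order of replicate number. The means were 470 ± 105, 325 ± 130, 497 ± 131 and 293 ± 80.2 in that order of groups (SD, n = 3 each). The stressed library was above the control library of the same number in all 6 pairs. The ranges of stress and control overlapped in HIN1 and did not overlap in WT, and number 3 was the highest of each group. Counting error was small beside these differences, since the 95% Wilson interval of a library's share was within 1.0 to 1.7% of it, for counting error only.

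The share was 1.60 times as high under stress as under control conditions over the 6 pairs (exact sign-flip test within replicate numbers, two-sided p = 0.03125, the smallest that 64 arrangements allow). The sign-flip tests over 6 pairs, here and below, treat the 2 pairs of a replicate number as independent. If they are not, 8 arrangements remain, which cannot give a p under 0.25. Within HIN1 the ratio was 1.54, 1.75 and 1.23 for numbers 1, 2 and 3, and within WT it was 1.502, 1.92 and 1.72. HIN1 and WT differed little in the summed share: their ratio over the 6 pairs was 1.02 (exact p = 0.844). The stress ratio of HIN1 over that of WT was 0.877 (exact p = 0.5, with 8 arrangements, which cannot give a p under 0.25). A test of all 4 groups gave exact p = 0.0122 within replicate numbers and 0.128 when libraries were permuted without regard to number. In whole seedlings, more mitochondrial RNA per cell, more cells rich in it and a larger oligo-dT-captured part of it cannot be told apart.

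**Figure D2:**
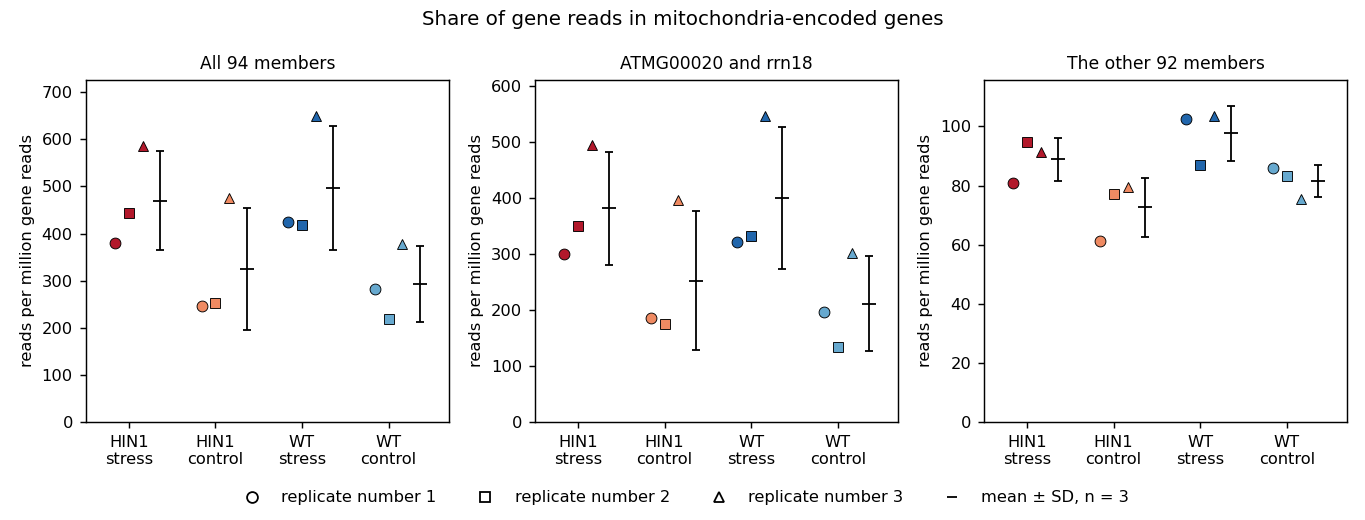
RPM, reads per 1000000 gene reads (y axis) in each library of the 4 groups (x axis) for all members, for ATMG00020 with rrn18, and for the other 92 members. Symbols are replicate numbers and bars are mean ± SD (n = 3); replicate number 3 is the highest of each group in the first 2 panels, and every stressed library lies above the control library of its number.

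A single pair of loci carried most of these reads. rrn18 (ATMG01390), the RNA of the small mitochondrial ribosomal subunit, and ATMG00020, a locus of 2568 bases without a name in the annotation used, together held 61.8% to 84.4% of the members' reads in each library, and neither had reads with several sites. They were the members of highest level per length, with a mean over 12 libraries of 65.7 RPKM for rrn18 and 62.9 RPKM for ATMG00020, RPKM being reads per kilobase of locus and 1000000 reads. The next were ATP synthase subunit 9 (ATMG01080), part of the membrane ring that turns as protons pass, at 15.0 RPKM, rps12 at 11.8 RPKM and rrn5 (ATMG01380), the small RNA of the large ribosomal subunit, at 9.47 RPKM. The reads of ATMG00020 were 1.13 to 1.52 times those of rrn18 in each library. Whether ATMG00020 is the locus of rrn26 was not settled by the annotation used. Only these 2 loci averaged more than 10 CPM, counts per 1000000 reads after scaling between libraries, and 64 of the 94 members averaged less than 1 CPM.

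The rest of the members moved less. Without the 2 loci, the members' share averaged 89.0 ± 7.28 RPM in HIN1 stress, 72.6 ± 9.92 in HIN1 control, 97.6 ± 9.17 in WT stress and 81.5 ± 5.55 in WT control (SD, n = 3 each). The stress to control ratio was 1.21 for these 92 members, again above 1 in 6 of 6 pairs (exact p = 0.03125), against 1.75 for the 2 loci alone. Number 3 was not high throughout for them: it was the highest of its group in HIN1 control and WT stress, the middle one in HIN1 stress and the lowest in WT control. The test of 4 groups gave exact p = 0.0677 for the 92 members. HIN1 over WT was 0.899 for these 92 members and 1.06 for the 2 loci alone (exact sign-flip p = 0.219 and 0.469).

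Gene by gene, 59 of the 94 members had enough reads to be tested with edgeR's quasi-likelihood test with replicate number in the model, on 22924 genes, and adjusted p-values are over all of these. The 35 others stay without a test, and the 59 are the better-read part of the genome. Under stress, 9 of 59 members passed an adjusted p of 0.05 in HIN1, 8 higher and 1 lower, where 27.6% of all genes tested passed, and 9 of 59 passed in WT, 8 higher and 1 lower, where 32.0% of all genes passed. The members' share of 15.3% was thus under the background in both genotypes. Counted in 1 direction, 8 of 59 members higher and 1 lower stand beside 15.0% of all genes higher and 12.6% lower in HIN1, and 15.3% higher and 16.7% lower in WT. The members' median log2 fold change was 0.29 in HIN1 and 0.19 in WT, against 0.0075 and -0.0045 for all genes tested. Of the members called, 5 were called in both genotypes and all 5 were higher in both: atp4, cox2, nad4, rrn18 and ATMG00020. They are 55.6% of each genotype's calls. The count was 5 in HIN1 without HIN1 stress 2, and 5 in WT without WT stress 3 or WT control 3. Among the 15 tested members with at most 10% of reads at several sites, 4 rose in HIN1 (atp4, cox1, rrn18 and ATMG00020) and 3 rose in WT (atp4, rrn18 and ATMG00020), and none fell; their median log2 fold changes were 0.28 and 0.37.

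Complex IV, which passes electrons to oxygen, had its members on the higher side throughout. cox2 (ATMG00160), the subunit that takes electrons from cytochrome c, had 4.42, 5.15 and 5.96 CPM in HIN1 stress, 2.91, 3.61 and 3.96 in HIN1 control, 6.05, 6.62 and 6.74 in WT stress, and 3.38, 3.27 and 3.17 in WT control. The stressed and control libraries did not overlap in either genotype. Its log2 fold change was 0.57 ± 0.12 (SE) in HIN1 (adjusted p = 0.00715) and 0.98 ± 0.12 in WT (adjusted p = 0.000352). cox1 (ATMG01360), the catalytic subunit, had 3.67, 5.14 and 5.53 CPM in HIN1 stress, 1.91, 3.01 and 3.86 in HIN1 control, 3.92, 4.61 and 5.81 in WT stress, and 3.55, 3.17 and 3.48 in WT control. Stress and control overlapped in HIN1 and not in WT. It rose in HIN1 (log2 0.73 ± 0.18, adjusted p = 0.014) and had a log2 fold change of 0.46 ± 0.18 in WT (adjusted p = 0.0744). The HIN1 call was lost without HIN1 stress 2 (0.65, adjusted p = 0.0623) and without HIN1 control 1 (0.56, adjusted p = 0.0547). Subunit 3 (ATMG00730, 39.9% of reads at several sites) rose in WT (log2 0.76 ± 0.20, adjusted p = 0.0192) and stood at 0.47 ± 0.20 in HIN1 (adjusted p = 0.121). Its WT call was lost when WT stress 2 or 3 or WT control 2 or 3 was left out, with log2 values of 0.61 to 0.76. The fourth, a subunit II-like locus (ATMG01280), did not pass in either genotype.

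In ATP synthase, 1 of 6 members rose and none fell. atp4 (ATMG00640), a subunit of the stalk that holds the enzyme's head in place, had 2.37, 2.50 and 3.31 CPM in HIN1 stress, 1.47, 1.16 and 1.23 in HIN1 control, 2.46, 3.22 and 3.63 in WT stress, and 1.59, 1.31 and 1.73 in WT control. All stressed libraries lay above all control libraries of their genotype, and none of its reads had several sites. The log2 fold change was 1.06 ± 0.19 in HIN1 (adjusted p = 0.00288) and 1.00 ± 0.18 in WT (adjusted p = 0.00316), and it stayed past the threshold without any 1 library. The ring subunit ATMG01080 had 5.45, 6.71 and 7.66 CPM in HIN1 stress, 5.01, 8.68 and 8.12 in HIN1 control, 8.29, 9.01 and 9.46 in WT stress, and 10.4, 9.90 and 9.12 in WT control, so stress and control overlapped. Its log2 fold change was -0.13 ± 0.16 in HIN1 and -0.15 ± 0.16 in WT. Subunit 6-1 (ATMG00410), the channel for protons, was at -0.0090 ± 0.18 in HIN1 and 0.11 ± 0.18 in WT. Within the one enzyme, log2 fold changes thus ran from -0.86 to 1.06 in HIN1 and from -0.57 to 1.00 in WT, though the lowest of each belongs to ATMG00480, whose standard errors were 0.88 and 0.87.

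In complex I, where electrons from NADH enter, all 5 tested members had positive log2 fold changes in both genotypes. nad4 (ATMG00580), a membrane subunit of the proton-pumping arm, had 3.34, 2.63 and 3.44 CPM in HIN1 stress, 1.79, 2.15 and 2.50 in HIN1 control, 3.42, 3.25 and 4.26 in WT stress, and 2.59, 2.31 and 2.89 in WT control. It rose in HIN1 (log2 0.55 ± 0.14, adjusted p = 0.0154) and in WT (0.49 ± 0.13, adjusted p = 0.022). Of its reads, 65.3% had several sites, and 100% of the bases of nad4 have an identical match on chromosome 2. Leaving out 1 library ended the HIN1 call for HIN1 stress 1 and HIN1 control 1 (0.44 and 0.42), and the WT call for 5 of the 6 WT libraries, WT control 1 being the exception (0.46 to 0.51). nad7 (ATMG00510, 28.6% of reads at several sites), in the arm that holds iron-sulfur clusters, rose in WT (log2 0.88 ± 0.19, adjusted p = 0.00807), without losing the call when any 1 library was left out, and was at 0.56 ± 0.20 in HIN1 (adjusted p = 0.0588). nad9 (ATMG00070), with no reads at several sites, was at 0.45 ± 0.22 in HIN1 and 0.041 ± 0.22 in WT. The NADH dehydrogenase 3 locus (ATMG00990), the complex I member with most reads, was at 1.91 ± 1.03 in HIN1 and 1.10 ± 0.99 in WT, and its CPM in HIN1 stress, at 5.63, 8.05 and 2.29, varied as its reads were shared with AT2G07751.

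**Figure D3:**
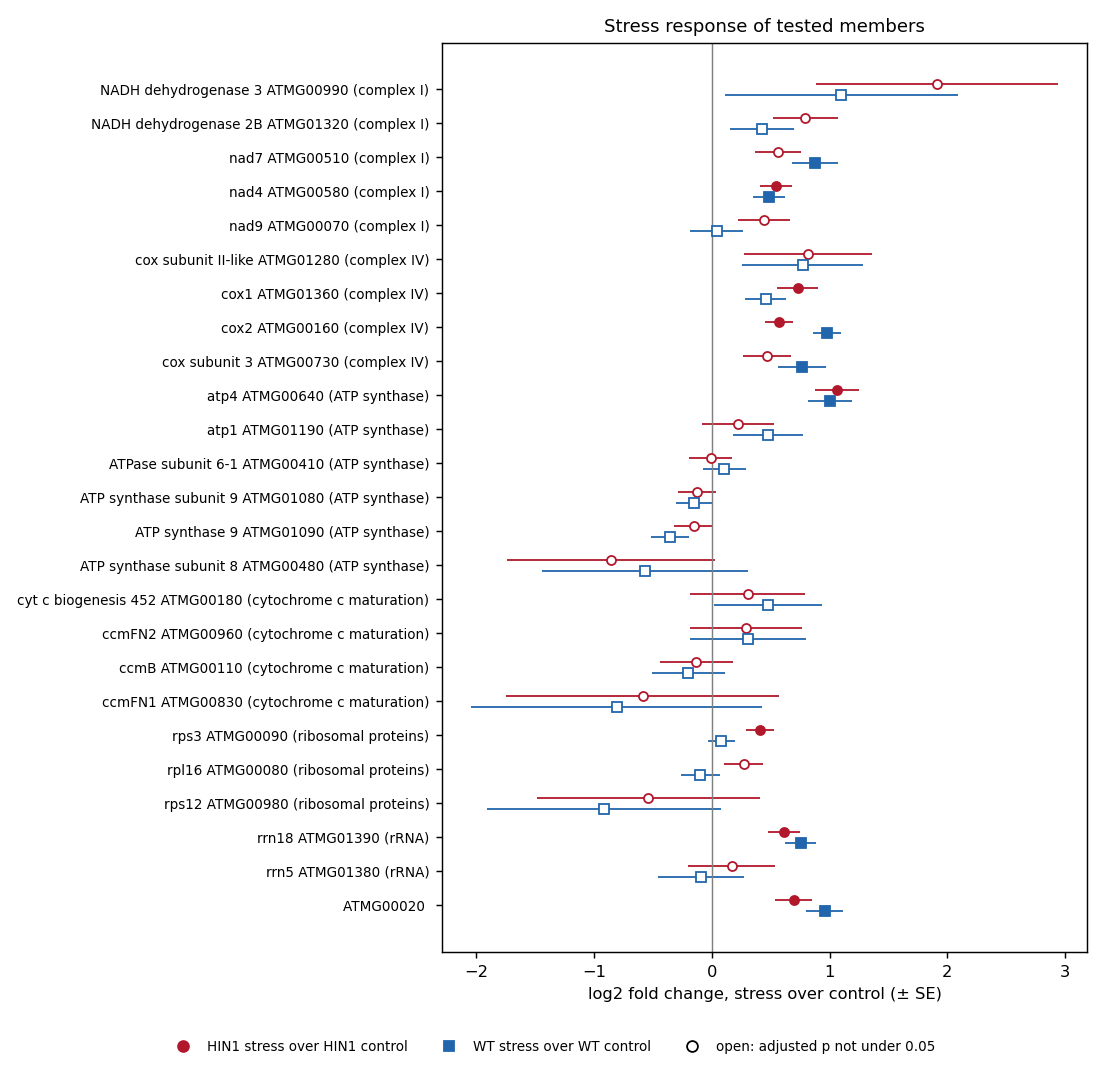
Log2 fold change of stress over control (x axis, ± SE) for tested members with a named role and for ATMG00020 (y axis), in HIN1 (red circles) and WT (blue squares); filled symbols have an adjusted p under 0.05 by edgeR's quasi-likelihood test. Filled symbols lie to the right of 0 for complex I, complex IV, atp4, rps3, rrn18 and ATMG00020, and the widest bars belong to ATMG00990, ATMG00480, ccmFN1 and rps12.

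The RNAs and proteins of the mitochondrial ribosome did not move as 1 group. rrn18 had 131, 140 and 224 CPM in HIN1 stress, 81.0, 74.2 and 190 in HIN1 control, 132, 130 and 241 in WT stress, and 92.9, 66.2 and 138 in WT control. Within each replicate number the stressed library was higher in both genotypes, and across numbers the groups overlapped. With number in the model it rose by 0.61 ± 0.13 on the log2 scale in HIN1 (adjusted p = 0.00857) and by 0.75 ± 0.13 in WT (adjusted p = 0.0027). ATMG00020 is given here beside rrn18 as the other most read locus, without a name that places it in the ribosome. ATMG00020 had 164, 198 and 275 CPM in HIN1 stress, 102, 96.5 and 214 in HIN1 control, 181, 197 and 303 in WT stress, and 114, 75.6 and 165 in WT control. Stress and control overlapped in HIN1 and not in WT. It rose by 0.69 ± 0.16 in HIN1 (adjusted p = 0.0101) and by 0.96 ± 0.16 in WT (adjusted p = 0.00177), and the HIN1 call was lost without HIN1 control 2 (0.62, adjusted p = 0.0523). Without number in the model, none of these 4 calls held (adjusted p = 0.366 and 0.17 for rrn18 and 0.217 and 0.064 for ATMG00020, in HIN1 and WT). rrn5 was at 0.17 ± 0.37 in HIN1 and -0.095 ± 0.36 in WT. Among ribosomal proteins, rps3 (ATMG00090) rose in HIN1 (log2 0.41 ± 0.12, adjusted p = 0.0297), a call lost when any of 5 of the 6 HIN1 libraries was left out (0.34 to 0.46), and was at 0.081 ± 0.12 in WT. rpl16 (ATMG00080) was at 0.27 ± 0.16 in HIN1 and -0.097 ± 0.16 in WT.

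**Figure D4:**
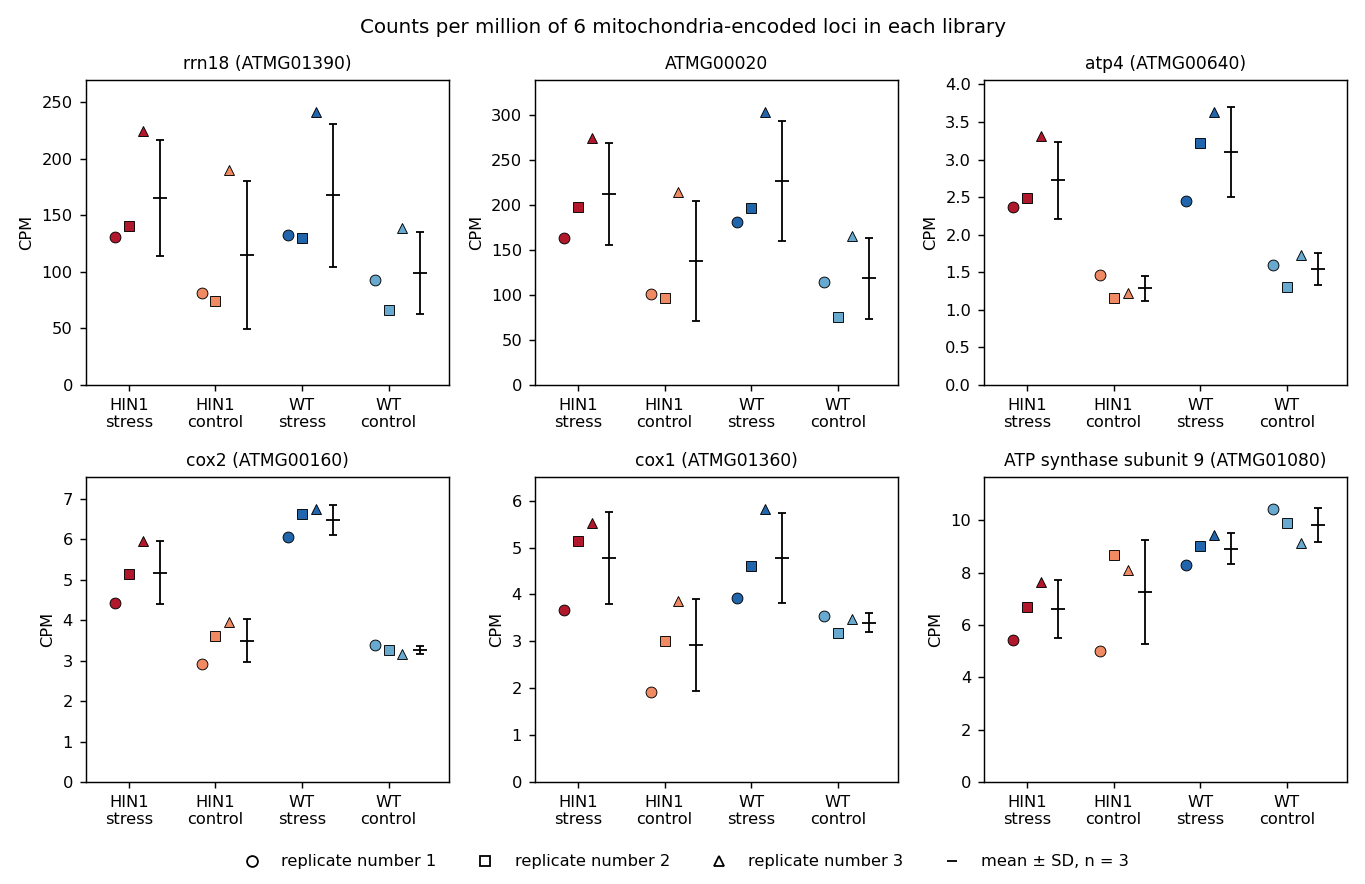
CPM, counts per 1000000 reads (y axis, each from 0) of 6 mitochondria-encoded loci in each library of the 4 groups (x axis). Symbols are replicate numbers and bars are mean ± SD (n = 3); number 3 stands high for rrn18 and ATMG00020, atp4 and cox2 separate stressed from control libraries in both genotypes, and ATP synthase subunit 9 does not.

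None of the 4 tested cytochrome c maturation factors passed in either genotype. The best read of them, ccmFN2 (ATMG00960), had 0.536 ± 0.0927 CPM in HIN1 stress, 0.446 ± 0.222 in HIN1 control, 0.489 ± 0.173 in WT stress and 0.378 ± 0.188 in WT control (SD, n = 3 each). ccmB (ATMG00110), which had no match on chromosome 2 of TAIR10.1, was at -0.13 ± 0.31 on the log2 scale in HIN1 and -0.20 ± 0.31 in WT. Among the 65 members without a name, 33 were tested and 5 were called in either genotype, 1 of them ATMG00020. ATMG00516 rose in WT (0.82 ± 0.25, adjusted p = 0.0345) and ATMG01170 rose in HIN1 (0.61 ± 0.18, adjusted p = 0.0314). The calls that fell were ATMG01370 in WT, with 2.48, 2.49 and 1.91 CPM in WT stress and 3.38, 3.17 and 3.40 in WT control (log2 -0.53 ± 0.15, adjusted p = 0.0267), and ATMG01020 in HIN1, with 0.267, 0.119 and 0.112 CPM in HIN1 stress and 0.253, 0.573 and 0.571 in HIN1 control (-1.46 ± 0.45, adjusted p = 0.0393). Stress and control did not overlap for ATMG01370 and overlapped for ATMG01020. Of the reads of ATMG00516, ATMG01170, ATMG01370 and ATMG01020, 54.6%, 51.0%, 34.2% and 51.4% had several sites, in that order. Each of these 4 calls was lost when any of several single libraries was left out: 4 libraries for ATMG00516 (log2 0.68 to 0.78 without them), 5 for ATMG01170 (0.42 to 0.67), 4 for ATMG01370 (-0.56 to -0.36) and 9 for ATMG01020 (-1.47 to -1.16).

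Adding the reads of a locus to those of its chromosome 2 match, an alternative added after the values had been seen, added called members, both higher and lower. It covered only loci cited in a note on a nuclear copy. The reads of nad4, nad7, cox2, ATMG00516, ATMG01170, ATMG01370 and ATMG01020 were therefore not summed. With this summing, 14 of 62 members passed in HIN1, 12 higher and 2 lower, where 27.6% of all genes passed, and 12 of 62 in WT, 10 higher and 2 lower, where 32.0% passed. atp1 (ATMG01190), the catalytic head's alpha subunit, summed with AT2G07698 to 17.2, 17.6 and 22.0 CPM in HIN1 stress, 10.0, 12.6 and 12.8 in HIN1 control, 23.2, 23.3 and 27.4 in WT stress, and 11.9, 10.3 and 12.5 in WT control. Its summed log2 fold change was 0.68 ± 0.091 in HIN1 (adjusted p = 0.000714) and 1.09 ± 0.091 in WT (adjusted p = 4.31e-05), whereas the mitochondrial locus alone was at 0.22 ± 0.31 and 0.48 ± 0.30. AT2G07698 holds most of that sum and, at 2433 bases, is longer than atp1, which has 1524. Loci that are not members stand outside these counts. Among them, the chromosome 2 match of cob, AT2G07727, had 4.27, 4.69 and 5.87 CPM in HIN1 stress, 1.85, 2.28 and 3.27 in HIN1 control, 4.22, 4.60 and 6.21 in WT stress, and 2.81, 1.48 and 3.86 in WT control. It rose by 1.03 ± 0.21 in HIN1 (adjusted p = 0.007) and by 0.92 ± 0.21 in WT (adjusted p = 0.0105). The match of rpl5, a protein of the large ribosomal subunit, rose by 1.04 ± 0.22 in HIN1 and by 0.68 ± 0.22 in WT (adjusted p = 0.0074 and 0.04). Summed ATP synthase subunit 8 fell in HIN1, with 2.57, 2.15 and 2.77 CPM in HIN1 stress and 3.40, 5.36 and 3.99 in HIN1 control (log2 -0.76 ± 0.18, adjusted p = 0.0115), and was at -0.44 ± 0.17 in WT (adjusted p = 0.0801). In WT, the summed member ATMG01180 fell by 0.86 on the log2 scale (adjusted p = 0.0291). ATMG00910 is not a member and had 1 read over all libraries. Its chromosome 2 match, AT2G07773, fell by 2.18 in WT (adjusted p = 0.0269) and was at 1.13 ± 0.55 in HIN1 (adjusted p = 0.155). Whether the summed reads came from the mitochondrion or from chromosome 2 cannot be told apart for identical sequences.

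The calls depended on scaling over all genes. When the members were scaled to their own summed reads, most of which are rrn18 and ATMG00020, 4 members passed in HIN1, all lower, and 13 in WT, 12 of them lower and 1 higher. When the sum left out those 2 loci, 0 members passed by edgeR in HIN1 (8 at an unadjusted p under 0.05) and 1, higher, in WT. Among the 8 rises called in each genotype before any summing with chromosome 2, the log2 fold changes of rps3 (-0.16) and nad4 (-0.014) in HIN1 and of nad4 in WT (-0.21) turned negative when scaled to the members' summed reads. The other rises kept a positive sign there, from 0.0026 for cox2 in HIN1 to 0.48 for atp4 in HIN1, and of these only ATMG00020 in WT stayed past the threshold (0.27, adjusted p = 0.0336). The rises are therefore relative to all genes. The authors' deposited table covers WT stress against WT control, and the submitters' processing notes name DESeq2. There, in the authors' deposited table, 4 members had an adjusted p under 0.05, all higher, where 26.8% of genes with an adjusted p passed. They were cox2 (log2 1.10), atp4 (0.90), ATMG00516 (0.69) and cox1 (0.46), and the authors' deposited table gave 0.71 for ATMG00020 (adjusted p = 0.0645) and 0.54 for rrn18 (adjusted p = 0.205).

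HIN1 overexpression did not move a single member past the threshold. Against WT, 0 of 59 members passed under stress (2 at an unadjusted p under 0.05), where 3.16% of all genes passed, and 0 of 59 under control conditions (5 at an unadjusted p under 0.05), where 2.36% of all genes passed. DESeq2 called 0 members as well in both, with 3 and 4 at an unadjusted p under 0.05. The authors' deposited tables, again on counts unlike those used here, give an adjusted p for 66 members under stress and 54 under control conditions. In each, 0 of these members had an adjusted p under 0.05, where 4.50% of genes passed under stress and 4.64% under control conditions. ATP synthase subunit 9 (ATMG01080) was the member with an unadjusted p under 0.05 in both: its CPM, given above, was lower in every HIN1 library than in every WT library of the same condition. Its log2 fold change was -0.44 ± 0.16 under stress (adjusted p = 0.287) and -0.47 ± 0.16 under control conditions (adjusted p = 0.166). Summed with its match AT2G07671, it was at -0.37 ± 0.135 (adjusted p = 0.292) and -0.26 ± 0.135 (adjusted p = 0.313). The summed libraries still did not overlap under stress. Under control conditions they did, with HIN1 control 2 at 15.75 CPM beside 15.34, 16.36 and 15.17 in WT control. The members' median log2 fold change was -0.090 under stress and -0.22 under control conditions, against -0.0054 and -0.018 for all genes. Without WT control 3, 3 of 60 members passed under control conditions, all lower in HIN1. With the chromosome 2 matches added, atp1 stood at -0.38 ± 0.089 under stress (adjusted p = 0.054). These comparisons share libraries with the stress comparisons.

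No member's stress response differed between HIN1 and WT past the threshold: 0 of 59 members passed by edgeR (2 at an unadjusted p under 0.05), where 0.118% of all genes passed, and DESeq2 called 0 with 1 at an unadjusted p under 0.05. cox2 had the smallest p, with a difference of -0.41 ± 0.17 on the log2 scale between its response in HIN1 and in WT (adjusted p = 0.52). For replicate number itself, 0 members passed by edgeR (7 at an unadjusted p under 0.05), where 0.00% of all genes passed, and DESeq2 called 2 members and 283 genes in all. rrn18 and ATMG00020 had the smallest p for number among members (adjusted p = 0.12 and 0.188 by edgeR).

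Of 39 nuclear genes for respiratory and ATP synthase subunits, all tested, 4 rose in HIN1 under stress, where 15.0% of all genes rose, and 12 rose in WT, where 15.3% did. None fell, where 12.6% of all genes fell in HIN1 and 16.7% in WT. The count of rises in HIN1 was thus under the background. Their median log2 fold change was 0.037 in HIN1 and 0.16 in WT. The called ones of smallest adjusted p in WT were AT5G11770 (0.25 ± 0.049, adjusted p = 0.00432), SDH2-1 (AT3G27380), the iron-sulfur subunit of complex II (0.36 ± 0.073, adjusted p = 0.00576), and EMB1467 (AT5G37510), the large peripheral subunit of complex I (0.30 ± 0.064, adjusted p = 0.00739). In HIN1 they were AT5G25450 (0.56 ± 0.16, adjusted p = 0.0261), AT5G11770 (0.17 ± 0.049, adjusted p = 0.0324) and CI51 (AT5G08530), which binds NADH in complex I (0.16 ± 0.050, adjusted p = 0.0369). None of the 39 differed between HIN1 and WT under either condition.

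Of 23 nuclear genes for mitochondrial transcription, RNA processing and RNA decay, 3 fell and none rose in HIN1 under stress, where 12.6% of all genes fell and 15.0% rose. In WT 2 rose and none fell, where 15.3% of all genes rose and 16.7% fell. The falls in HIN1 were near the background share and the rises in WT under it. MGP3 (AT1G68990), named RPOTm for the phage-type RNA polymerase of mitochondria, had 34.2, 40.2 and 37.3 RPM in HIN1 stress and 45.4, 45.9 and 45.6 in HIN1 control, with no overlap. Its log2 fold change was -0.30 ± 0.054 (adjusted p = 0.00312). AT5G15700 (-0.25 ± 0.051, adjusted p = 0.00595) and BIR6 (AT3G48250), a splicing factor for nad7 transcripts (-0.29 ± 0.086, adjusted p = 0.0307), were the others. In WT the genes that rose were PMH2 (AT3G22330), an RNA helicase of mitochondria (0.24 ± 0.055, adjusted p = 0.00952), and ATWHY2 (AT1G71260), which binds mitochondrial DNA (0.20 ± 0.059, adjusted p = 0.0297). None of the 23 passed the test of the difference between the stress responses.

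Genes of alternative respiration and mitochondrial stress had the largest medians of the 3 nuclear pathway lists under stress. These nuclear genes encode bypasses of the respiratory chain and proteins made when mitochondria are disturbed. Of 21, 11 rose and none fell in HIN1 under stress, with a median log2 fold change of 0.63, where 15.0% of all genes rose and 12.6% fell. In WT 10 rose and 3 fell, with a median of 0.50, where 15.3% of all genes rose and 16.7% fell. NDB4 (AT2G20800), an alternative NADH dehydrogenase, had 1.07, 1.58 and 2.28 RPM in HIN1 stress, 0.225, 0.246 and 0.131 in HIN1 control, 2.66, 1.25 and 2.88 in WT stress, and 0.0598, 0.0983 and 0.131 in WT control. Stress lay above control throughout, by a log2 fold change of 2.96 ± 0.41 in HIN1 (adjusted p = 0.000887) and 4.45 ± 0.45 in WT (adjusted p = 0.000126). AT5G09570 rose by 1.77 ± 0.20 in HIN1 and 1.70 ± 0.20 in WT (adjusted p = 0.000299 and 0.00026), and NAC13 (AT1G32870), a transcription factor of the mitochondrial stress response, by 0.62 ± 0.099 in WT (adjusted p = 0.00155). HSP23.6-MITO (AT4G25200), a mitochondrial small heat shock protein, had 5.68, 8.43 and 16.9 RPM in HIN1 stress, 0.225, 0.180 and 0.525 in HIN1 control, 1.22, 0.624 and 1.00 in WT stress, and 0.164, 0.360 and 0.147 in WT control.

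Some genes of the last list also passed between HIN1 and WT. Under stress 3 of the 21 were higher in HIN1, where 3.16% of all genes passed, and under control conditions 1 was, AOX1D, where 2.36% passed. AOX1D (AT1G32350), an alternative oxidase that carries electrons past complexes III and IV, had 4.10, 5.11 and 5.17 RPM in HIN1 stress against 0.263, 0.493 and 0.552 in WT stress, and 2.83, 2.56 and 2.77 in HIN1 control against 0.538, 0.360 and 0.278 in WT control. All HIN1 libraries lay above all WT libraries. The log2 fold change was 3.47 ± 0.30 under stress (adjusted p = 0.00021) and 2.71 ± 0.30 under control conditions (adjusted p = 0.00186). Under stress, HSP23.6-MITO was higher by 3.32 ± 0.44 (adjusted p = 0.0025) and TIM17-1 (AT1G20350), of the inner membrane protein import channel, by 1.17 ± 0.23 (adjusted p = 0.0238). None of the 21 passed the test of the difference between the stress responses.

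Some tissue marker genes passed the stress tests, where 27.6% of all genes passed in HIN1 and 32.0% in WT. The summed level of 5 green tissue markers was 24593 to 26035 RPM in HIN1 stress, 20844 to 25856 in HIN1 control, 23603 to 24859 in WT stress and 26592 to 30755 in WT control, and 2 of the 5 fell in WT under stress while none passed in HIN1. The 5 root markers summed to 2970 to 3096 in HIN1 stress, 3432 to 3782 in HIN1 control, 3180 to 3352 in WT stress and 3332 to 4207 in WT control, and 1 rose and 1 fell in HIN1 while 1 rose in WT. The 4 markers of dividing cells summed to 92.3 to 95.8 in HIN1 stress, 76.7 to 88.3 in HIN1 control, 88.5 to 109 in WT stress and 80.7 to 85.2 in WT control, and 2 rose in HIN1 and 1 in WT under stress. No marker was at 0 over all libraries. The part of tissue make-up in the members' stress response was not tested.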

How the data were processed

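Polyadenylated RNA of whole seedlings was sequenced in 12 libraries, 3 in each of 4 groups. Reads were handled with CASAVA, bcl2fastq 1.8.4, Trimmomatic 0.35, Bowtie2 and DESeq2 on TAIR10, per the submitters' processing notes. The deposited tables give per gene an estimated count of reads, with reads at several sites divided among them, the RPKM, the fraction of reads at several sites and the model length, all made by the authors. The authors' deposited comparison tables add a mean signal, a log2 ratio, a test statistic (score) and p-values. How reads were divided is not given in the sources used here.

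Counts were rounded. Genes kept by filterByExpr (minimum count 10) were scaled by TMM and tested with edgeR 4.0.16 in R 4.3.3, with group and replicate number in the model and Benjamini-Hochberg adjustment over 22924 genes, called at 0.05. DESeq2 1.42.0 was an alternative. Shares were compared on the log2 scale by exact permutation. The steps were tested on simulated data. Matches in chromosome 2 came from BLAST+ 2.17.0 at an e-value of 1e-10 on TAIR10.1, and sequences and names from RefSeq's TAIR10.1 annotation; the tables give no coordinates. CPM values are after TMM scaling and RPM values, per gene reads, are not.

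The members and lists were chosen with earlier results of these data known. Genes named were the 5 members of highest mean RPKM, the member of highest mean CPM in each role, up to 4 called members of smallest adjusted p per direction and comparison, and up to 3 called genes of smallest adjusted p per comparison in each nuclear list; other named ones were picked after their values were seen. Alternatives were other scalings, filters, read sets, DESeq2, no replicate number and libraries left out.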

Additional observations from a re-analysis of the deposited data

How the results depend on the processing

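Of the summary values under each alternative, 225 kept their direction and side of the threshold, 21 moved, 8 lost the threshold and 7 turned. Of the called members' values, 289 kept both, 100 lost the threshold and 3 turned. The members' summed share under the test of 4 groups (spread of group means 0.77 on the log2 scale) had p = 0.1275 in an exact permutation test with no replicate block. With the block left out, rrn18 and ATMG00020 lost their calls in both genotypes. Replicate numbers are shared by all groups in the labels. Over all genes tested, libraries of the same number correlated between -0.11 and 0.195 in their deviations over 18 pairs. Over the 59 tested members, same-number pairs ran from -0.326 to 0.621 and pairs of different number from -0.546 to 0.493. These correlations do not settle whether a number marks one experiment. Without the 2 most read loci, the spread between 4 groups was 0.4318 (exact p = 0.06771), HIN1 against WT turned to -0.1537 and the difference between stress responses to 0.04115. Without the annotated rRNAs, rrn18 and rrn5, and with ATMG00020 still counted, HIN1 against WT turned to -0.01742.

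Leaving out 1 replicate number, the spread between 4 groups ran from 0.6834 to 0.8598 on the log2 scale and was past the threshold in none (exact p = 0.08333, 0.125 and 0.1667 without numbers 1, 2 and 3). Stress against control ran from 0.5731 to 0.7402, each with exact p = 0.125, the smallest that 16 arrangements allow. HIN1 against WT ran from -0.04172 to 0.1212. Leaving out a library or a number, 2 to 11 members were called for HIN1 stress, 4 to 12 for WT stress and 0 to 3 for HIN1 against WT under control conditions. The median log2 fold change ran from 0.1624 to 0.3985 for HIN1 stress and from -0.1931 to -0.009388 for HIN1 against WT under stress.

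Scaled to summed mitochondrial reads, 4 members were called in HIN1 stress, all lower, and 13 in WT stress, 12 lower; rps3 turned to -0.1632 and nad4 to -0.0142 in HIN1, and nad4 to -0.2115 in WT. Scaled without the 2 most read loci, 0 were called in HIN1, with 8 at an unadjusted p under 0.05 in edgeR, and 1 in WT. Among members with at most 10% of reads at several sites, of which fewer were tested, 4 were called in HIN1 and 3 in WT. With chromosome 2 matches summed, 14 were called in HIN1 with a median of 0.3726. For replicate number, DESeq2 called 2 members and the scaling to mitochondrial reads 14. The cause of these changes was not tested. Most members averaged under 1 CPM, which limits what could be called.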
